A study of Solanum lycopersicum and Solanum pennellii and Solanum pimpinellifolium with 52 samples.

Results

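The genes described here are the 100 gene models, of 28298 in the expression table, that stood highest in seedlings of Solanum pennellii relative to seedlings of 3 other tomato species. Each gene received a score, the log2 of its mean RPKM plus 1 in 7 S. pennellii seedling libraries over the largest of the other species' means plus 1, and the 100 highest scores were taken. RPKM scales the reads of a gene to its length and to all reads of the library. The study sequenced mRNA from 52 libraries in a pair of experiments. In the seedling experiment, 28 libraries came from seedlings grown on plates at standard light, 7 each from S. pennellii LA716, cultivated tomato (S. lycopersicum LA3475), S. habrochaites LA1777 and S. pimpinellifolium LA1589. In the factorial, 24 libraries covered S. pennellii LA716 and S. lycopersicum LA3475 (named M82 in the labels), 6 tissues (root, stem, leaf, seedling, vegetative meristem and inflorescence) and light of simulated shade or simulated sun. The ratio of red to far-red light was 0.48 in shade and 3.1 in sun, both at an average of 95 µE, and each combination of species, tissue and light had 1 library. Plants grew in a chamber at 22 °C, the labels name no mutation or transgene, and they give neither plant age nor the number of plants per library. A Qiagen kit served for RNA of the seedling experiment and Trizol for the factorial, so extraction and experiment cannot be told apart.

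S. pennellii is a small, green-fruited wild relative of tomato from dry habitats of western South America, and it can be crossed to cultivated tomato. It is used as a source of drought tolerance and as the donor of introgression lines in M82. Tomato and its wild relatives keep most of their genes in common, so expression can be compared gene by gene between them. Plants read a low red to far-red ratio through phytochromes as a sign of neighbours, and seedlings and stems are known to respond to it by elongating.

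Library totals ran from 1477052 to 5556059 reads. At the median total and the median gene model length of 918 bases, an RPKM of 1 stood for 2.12 reads, and the counting error of low values is large. The table gives its gene models by ID, and 0 IDs matched the reference gene table, so genes appear by ID, their functions are not stated, and tissue labels could not be checked against named markers. Wild-species reads may match the reference less well, and near-identical copies may share reads. A low value can therefore come from expression or from sequence, which cannot be told apart here. In whole organs, fewer cells of a type and less RNA per cell cannot be told apart either. Whether libraries of a group came from separate plants is not stated, so p-values measure only how these libraries spread, which may be technical. In the factorial that spread lies between the shade and sun libraries of each species and tissue, after an average light term per species. A light response particular to a tissue is therefore part of that spread.

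In the seedling experiment, the values that chose the genes are given as a description. The scores ran from 2.975 to 6.39 with a median of 3.71. Mean S. pennellii levels ran from 7.60 to 803 RPKM, with a median of 39.0, against medians of 0.842 RPKM in S. lycopersicum, 0.933 in S. pimpinellifolium and 0.948 in S. habrochaites. The mean reached 100 RPKM in 21 of the 100 genes and was below 10 in 4. The next highest species was S. lycopersicum for 40 genes, S. habrochaites for 34 and S. pimpinellifolium for 26. That next highest mean was below 1 RPKM for 36 genes and at least 10 for 10 genes. All 7 S. pennellii libraries lay above the 21 other libraries for 90 of the 100 genes, where 4.16% of 24935 gene models did so; the rule used these values. Not a single read fell on 7 of the genes in the 21 libraries of the other species. The rule favours such genes, and the share of all gene models without a read there was not counted.

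Gene Solyc09g007010.1.1 had the highest score. Its lowest, median and highest values in S. pennellii seedlings were 9.82, 110.8 and 212.2 RPKM. The other 21 seedling libraries held 3 reads of it in all and none exceeded 1.03 RPKM. Gene Solyc01g006580.2.1 had the second highest score. Its lowest, median and highest values were 164.1, 663.6 and 932.8 RPKM in S. pennellii, against a highest value of 14.7 RPKM elsewhere. At the limit of the list, Solyc03g083380.2.1 (score 2.985) and Solyc08g078460.2.1 (2.975) were the last genes inside, and Solyc01g008650.2.1 and Solyc05g052230.1.1 (2.974 each) were the first outside. These genes differed in level, since Solyc08g078460.2.1 had between 263.4 and 446.7 RPKM in S. pennellii and 25.1 to 69.9 in the other species. Solyc03g083380.2.1 had between 12.5 and 37.2 RPKM and at most 3.86 elsewhere.

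**Figure D1:**
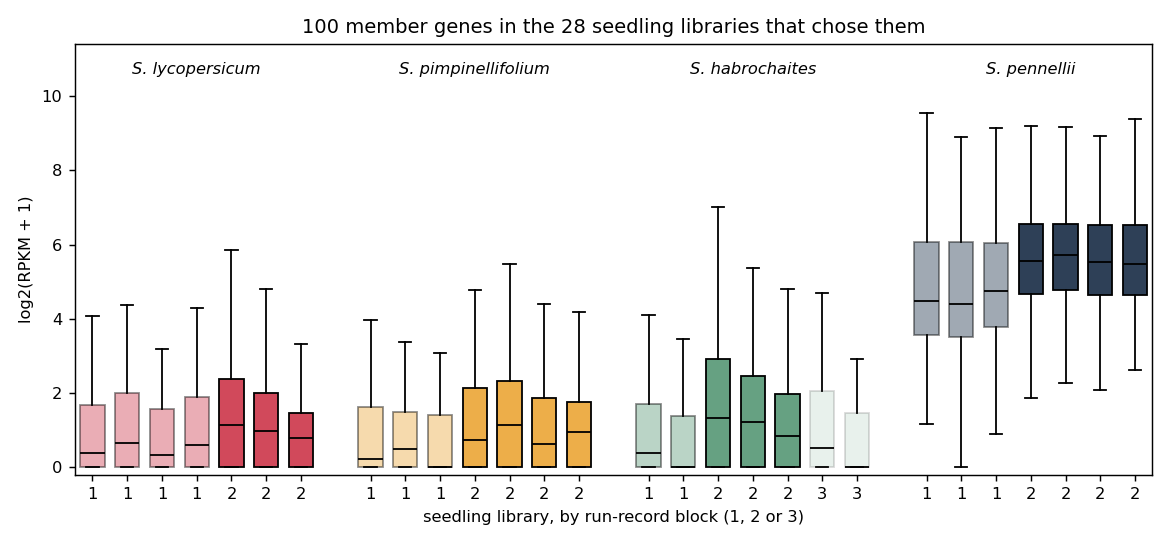
Levels of the 100 genes in each of the 28 seedling libraries, as log2(RPKM + 1) on the vertical axis, with libraries set by species and run-record block on the horizontal axis. Most genes are high in each of the 7 S. pennellii libraries, at higher levels in block 2 than in block 1, and near 0 in the other species.

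The S. pennellii seedling libraries differed among themselves. The coefficient of variation over the 7 libraries had a median of 46.7% and ran from 14.6% to 227%. By the numbers of their run records, the seedling libraries form blocks of 12, 14 and 2, and what a block stands for is not stated. The median over the 100 genes was 20.1 to 25.7 RPKM in the 3 S. pennellii libraries of block 1 and 43.7 to 51.8 RPKM in the 4 of block 2. The other species also had higher medians in block 2 than in block 1, at 0.722 to 1.22 against 0.270 to 0.587 RPKM in S. lycopersicum. The median log2 difference between the blocks in S. pennellii was 0.75 for the 100 genes and 0.28 for 19536 expressed genes. Block 2 lay wholly above block 1 for 36 of the 100 genes (22.8% of all expressed genes) and wholly below for 2 (4.69%). Within block 1 alone the score had a median of 3.35 and exceeded 1 for 99 genes, and within block 2 the median was 3.86 and it exceeded 1 for all 100. Among the 100 highest scores of a block, 76 of the genes stayed in block 1 and 82 in block 2. The rule used these same libraries, so high scores within a block were largely set by it. The share of all gene models with a score above 1 was not counted.

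A single library carried most of the level of 2 genes. Library 27 of S. pennellii held 87.7% of the summed RPKM of Solyc10g086090.1.1 and 80.9% of that of its neighbour Solyc10g086100.1.1. Solyc10g086100.1.1 had 64.2 RPKM in that library and at most 7.79 in the other 6 S. pennellii libraries. The high mean of this gene in S. pennellii seedlings thus rested on 1 library.

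Gene model length enters RPKM and so the score, while position does not. The gene models of the 100 genes were shorter than most, with a median length implied by the RPKM values of 509.5 bases (139 to 2550), where the median of all gene models was 918. By the chromosome number in the ID, 17 of the 100 genes lay on chromosome 9. That chromosome holds 7.19% of the 24935 gene models with a value above 0 in a seedling library. Each other numbered chromosome held between 2 and 11 of them. With at most 9 gene models between neighbours, 26 of the genes fell into 10 runs on the same chromosome. No comparable count was made for other genes, so this is a description. The longest runs held 4 genes each, Solyc12g006730.1.1 to Solyc12g006770.1.1 with no other gene model of the table between them, and Solyc09g011510.2.1 to Solyc09g011650.2.1 within 14 gene models. Neighbours of this kind can be copies of each other, and if they are, the authors' counting may have split their reads, so levels within a run are uncertain. The 4 genes of the chromosome 12 run were each high in all 7 S. pennellii seedling libraries, from 89.0 to 203.5 RPKM for Solyc12g006730.1.1 and from 297.0 to 764.0 RPKM for Solyc12g006770.1.1. The latter also reached 148.2 RPKM in an S. pimpinellifolium library.

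The factorial measured the same genes in libraries the rule had not used. A gene was tested where it reached 1 RPKM in at least 2 of the 24 libraries, which 99 of the 100 genes did; Solyc10g086110.1.1 did not. It was called at an adjusted p under 0.05 in limma, a linear model fitted over all 22512 genes tested, with a log2 difference of at least 1 on log2(RPKM + 1), a scale that understates the change of low genes. In seedlings, 47 of the 99 genes passed as higher in S. pennellii than in M82 and 0 as lower, where 3.75% of all genes were called higher and 6.97% lower. In leaf, 32 were higher and 2 lower (4.01% and 5.51% of all genes). In root, 33 were higher and 3 lower (5.07% and 5.98%). In stem, 23 were higher and 2 lower (4.98% and 7.13%). In inflorescence, 20 were higher and 3 lower (2.54% and 6.12%). In vegetative meristem, 27 were higher and 1 lower (2.73% and 2.95%). In every tissue the share of higher calls among the 99 genes exceeded that among all genes, and it was largest in seedlings. Averaged over the 6 tissues, 44 of the 99 rose and 2 fell (3.98% and 6.61%).

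The size of the species difference was also largest in seedlings. The median log2 difference of the 99 genes was 1.74 in seedling, 1.09 in vegetative meristem, 0.91 in leaf and 0.76 in root, and it was 0.00 in stem and in inflorescence. Many listed genes had no read there. In stem these were 38 (shade) and 39 (sun) in S. pennellii and 47 and 57 in M82. In inflorescence they were 36 and 32, and 33 and 40. In seedling they were 5 and 2, and 34 and 46. A gene without a read in either species gives a difference of 0. The medians of 0.00 therefore do not show that expressed genes had like levels in both species. The medians of all genes were −0.14 in seedling, −0.05 in stem, −0.24 in inflorescence and 0.00 in the others. After median-ratio scaling the median of all genes was 0.00 in seedling and −0.03 in inflorescence, and the 99 genes gave 52 and 23 higher calls there. The difference was above 0 for 88 of the 99 genes in seedling (38.4% of all genes) and for 46 in inflorescence (32.4%). In inflorescence the rest includes genes without a read in either species. The count of higher calls in 3 tissues hung on single libraries. It was 21 in leaf without the M82 sun leaf library. In inflorescence it was 12 without the S. pennellii shade library, 13 without the S. pennellii sun library and 13 without the M82 sun library. In vegetative meristem it was 17 without the S. pennellii shade library, 13 without its sun library and 15 without the M82 shade library.

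**Figure D2:**
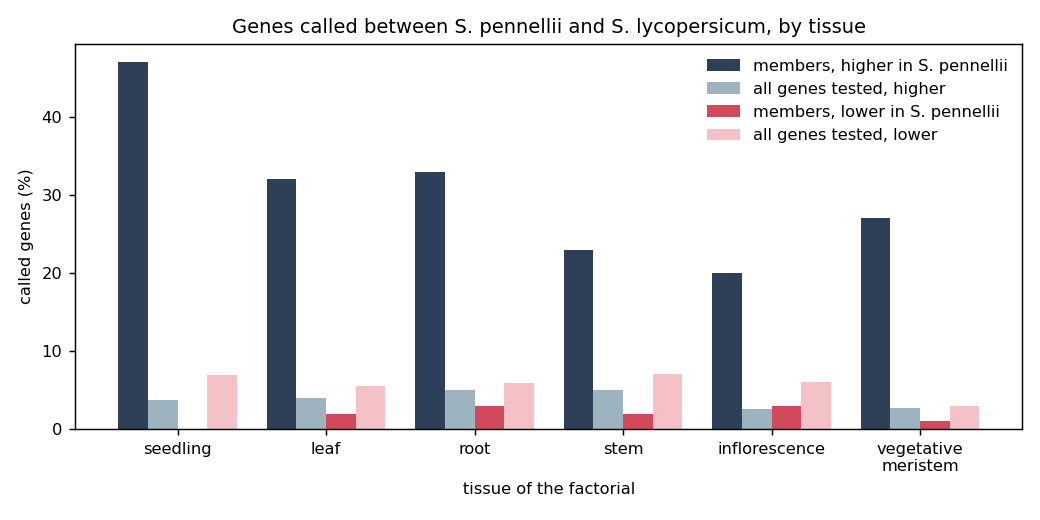
Percentage of genes called higher or lower in S. pennellii than in M82 in each tissue of the factorial, for the 100 genes and for all 22512 tested genes. The bar for higher calls among the 100 genes is tallest in seedling (47 genes) and shortest in inflorescence (20 genes), and it is above the bar for all genes in each tissue.

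The genes were lower in the S. pennellii seedlings of the factorial than in those of the seedling experiment. The level was lower for 96 of the 100 genes (61.8% of the 19536 expressed genes), with a median log2 difference of −2.002, where the median of all genes was −0.20. The median over the 100 genes was 8.31 and 8.73 RPKM in the S. pennellii seedling libraries of the factorial. The S. pennellii mean lay above that of M82 in factorial seedlings for 89 of the 100 genes, and for 32.2% of all gene models. The rule chose the genes for high S. pennellii levels in the seedling experiment, so it favours lower levels in other libraries. The values for all genes are not matched for that choice. The experiments also differ in light, extraction kit and runs, and the part of each in this difference was not tested.

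Counted over tissues, 34 of the 99 tested genes were called higher in S. pennellii in no tissue, 25 in 1, 12 in 2, 8 in 3, 4 in 4, 3 in 5 and 13 in all 6. At least 1 higher call was seen for 13.2% of all genes, and a higher call in all 6 tissues for 0.435%. A lower call in at least 1 tissue was seen for 7 of the 99 genes, against 20.8% of all genes. Of these 7 genes, 3 were also called higher in another tissue. Higher calls in seedling and in no other tissue numbered 14, against 1.11% of all genes. In 12 of the genes the 12 S. pennellii libraries all lay above the 12 of M82, against 0.493% of all genes.

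**Figure D3:**
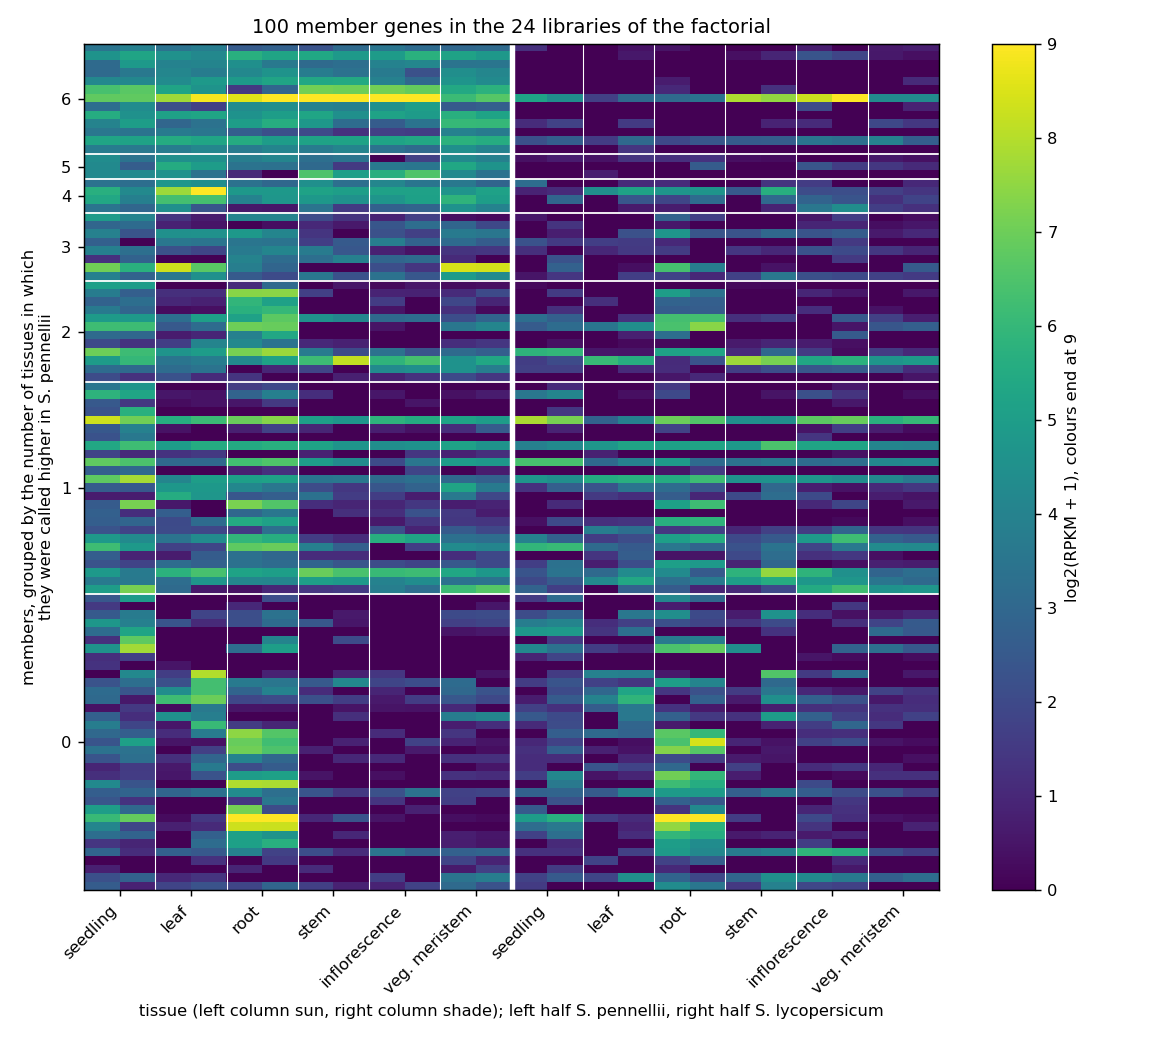
Level of the 100 genes, as log2(RPKM + 1), in the 24 libraries of the factorial, with sun and shade side by side for each tissue, S. pennellii to the left and M82 to the right. Genes are grouped by the number of tissues with a higher call in S. pennellii, and darker colours are lower levels. The 13 genes called in all 6 tissues are lighter across S. pennellii and mostly dark in M82.

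The 13 genes called higher in all 6 tissues had short gene models, with a median of 303 bases (139 to 1524) against 576 for the other 87. Of them, 4 had no read in the 12 M82 libraries, and the share of all gene models without one was not counted. Gene Solyc12g062670.1.1 was one of these 4 genes and had the second largest difference over the mean of the tissues. In S. pennellii it had 29.1 to 62.8 RPKM in 5 of the 7 seedling libraries of the seedling experiment, and 15 and 23.1 in the other two. In the factorial it had 22.5 RPKM in shade and 47.0 in sun in seedling, 38.6 and 34.4 in leaf, 31.1 and 23.1 in root, 21.6 and 37.8 in stem, 29.8 and 35.2 in inflorescence, and 35.9 and 49.9 in vegetative meristem. The 12 libraries of M82 and the 21 seedling libraries of the other species were listed at 0. Its level in S. pennellii thus differed little between tissues, and no library of another species overlapped it. It was higher by 5.07 ± 0.35 (log2, SE) in seedling (limma adjusted p = 7.4e-07) and by 5.08 ± 0.14 over the mean of the tissues (adjusted p = 2.6e-12). The gene passed the filter through S. pennellii alone. The fit pools the spread over both species, and M82 libraries at 0 add none, so SE and p may be too small. The same limit holds for genes nearly absent from M82, such as Solyc12g010210.1.1 and Solyc08g014230.2.1.

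Gene Solyc09g075400.2.1, also called in all 6 tissues, was among the 2 largest differences in root. It had 37.1 RPKM in shade and 50.2 in sun in S. pennellii root and was listed at 0 in both M82 root libraries. The log2 difference was 5.47 ± 0.39 (SE; limma adjusted p = 4.8e-07). Over all 12 S. pennellii libraries it kept between 17.2 and 51.5 RPKM, while M82 had at most 4.10.

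Other genes of the 13 varied between tissues. The ratio of the highest to the lowest S. pennellii tissue mean had a median of 2.67 and ran from 1.41 to 57.3. Gene Solyc12g010210.1.1 had the largest difference over the mean of the tissues, 5.36 ± 0.20 (SE; limma adjusted p = 5.3e-11). In S. pennellii it had 103.6 RPKM in shade and 82.1 in sun in seedling, 126.8 and 133.8 in stem, 117.3 and 134.7 in inflorescence, 54.7 and 42.2 in vegetative meristem, and 23.5 and 37.2 in leaf. Root was lowest, at 6.73 RPKM in shade and 1.79 in sun. In M82 it had 1.45 RPKM in shade stem, 1.07 in sun root, and was listed at 0 in the other 10 libraries. The groups did not overlap in any tissue, and they came closest in root. Its gene model of 237 bases is short, and the M82 libraries held 2 reads of it in all. The sun root values, 1.79 RPKM in S. pennellii and 1.07 in M82, stand for very few reads. The lack of overlap in root therefore means little. The log2 difference was 6.54 in seedling, 6.39 in stem and 5.62 in vegetative meristem, and 1.69 in root (adjusted p = 0.040).

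Gene Solyc07g007750.2.1 was the highest of the 13 in level. It had 6092 RPKM in shade and 3411 in sun in S. pennellii stem, and 2183 and 2344 in inflorescence. In leaf it had 472.3 and 210.4 RPKM, in root 512.4 and 390.0, in seedling 111.3 and 110.3, and in vegetative meristem 97.4 and 68.6. M82 had the gene in stem and inflorescence too, at 184.4 and 236.1 RPKM and at 634.9 and 309.4 RPKM, and stayed at or under 36.7 in the other tissues. Stem and inflorescence were therefore the highest tissues in both species, and every S. pennellii library lay above the M82 libraries of its own tissue. Its log2 difference was 5.91 ± 0.43 (SE) in leaf (limma adjusted p = 1.2e-06) and 5.54 ± 0.43 in root (adjusted p = 9.0e-07).

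Gene Solyc08g014230.2.1 was not among the 13 and was one of the 2 largest differences in stem and in inflorescence. It had 32.1 RPKM in shade and 88.6 in sun in S. pennellii stem, and 90.8 and 48.5 in inflorescence. M82 was listed at 0 in these 4 libraries, and in all its libraries but the sun leaf, at 0.662 RPKM. In S. pennellii root it was also low, at 0 in shade and 1.06 RPKM in sun. Its log2 difference was 5.77 ± 0.48 (SE) in stem (limma adjusted p = 3.0e-06) and 6.08 ± 0.48 in inflorescence (adjusted p = 1.9e-06).

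Gene Solyc01g006580.2.1, second by score, was high in only part of the plant. In S. pennellii it had 101.7 RPKM in shade and 315.1 in sun in leaf, 329.8 and 349.1 in vegetative meristem, and 51.4 and 131.8 in seedling. It had 6.73 and 13.4 RPKM in root, 1.61 and 3.45 in inflorescence, and was listed at 0 in stem. M82 had at most 5.94 RPKM outside root, and 12.9 and 80.6 in root. The species therefore stood apart in leaf, meristem and seedling and overlapped in root. The log2 difference was 7.33 ± 0.88 (SE) in leaf (limma adjusted p = 0.00011), 7.13 ± 0.88 in vegetative meristem (adjusted p = 0.00017) and −1.68 ± 0.88 in root (adjusted p = 0.27).

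**Figure D4:**
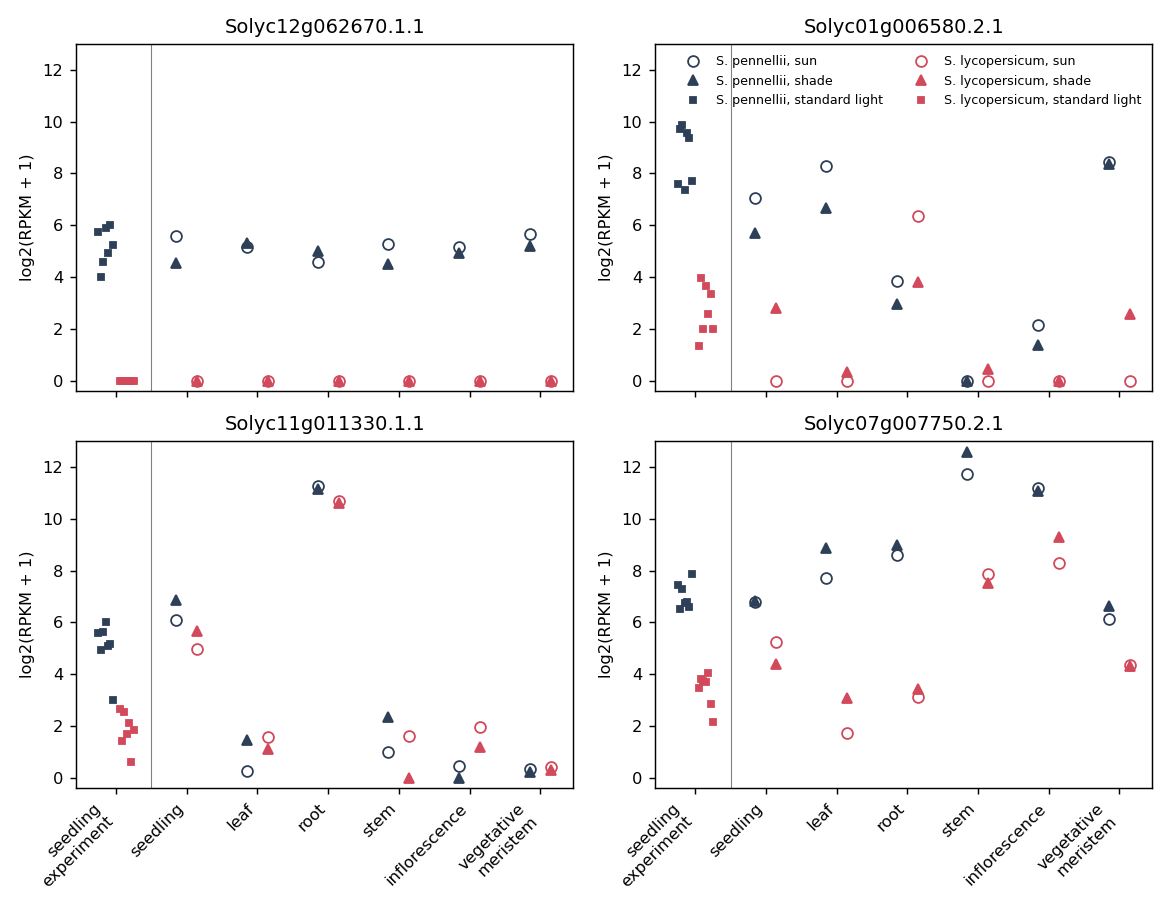
Levels of 4 genes as log2(RPKM + 1) in the seedling experiment (squares, 7 libraries a species) and in each tissue of the factorial (1 shade and 1 sun library a species). Solyc12g062670.1.1 is level over S. pennellii and at 0 in M82, Solyc01g006580.2.1 is high in seedling, leaf and meristem, Solyc11g011330.1.1 is highest in root of both species, and Solyc07g007750.2.1 is highest in stem and inflorescence.

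Lower calls in S. pennellii were few, and most of those named here were lost when a single library was left out. Gene Solyc02g089660.1.1 had the largest of them. In stem it was listed at 0 in both S. pennellii libraries and had 21.1 RPKM in shade and 6.77 in sun in M82. The log2 difference was −3.71 ± 0.69 (SE; limma adjusted p = 0.0026), and without the M82 shade stem library the adjusted p was 0.054. In inflorescence it had 0 and 2.10 RPKM in S. pennellii and 11.6 and 18.3 in M82 (log2 difference −3.15 ± 0.69). That call was lost without the S. pennellii shade or the M82 sun inflorescence library. Over the mean of the tissues the difference was −1.71 ± 0.28 (adjusted p = 0.00027), and it stayed called with each library left out in turn.

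Gene Solyc02g062460.2.1 was also called lower in stem and inflorescence. In stem it had 1.22 and 3.32 RPKM in S. pennellii and 14.8 and 12.2 in M82 (shade, then sun), and in inflorescence 5.88 and 10.1 against 49.8 and 57.9. The log2 differences were −2.23 and −2.65. The stem call was lost without any 1 of the 4 stem libraries (limma adjusted p up to 0.14). The inflorescence call was lost without either S. pennellii inflorescence library or the M82 sun inflorescence library (up to 0.12). In leaf and vegetative meristem, Solyc07g008210.2.1 was called lower, with log2 differences of −2.31 and −2.26. It was listed at 0 in both S. pennellii leaf libraries and at 8.76 RPKM in M82 shade leaf and 1.53 in M82 sun leaf. The leaf call was lost without either S. pennellii leaf library or the M82 shade leaf library (limma adjusted p up to 0.24), and the meristem call without any 1 of the 4 meristem libraries (up to 0.37).

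In root, Solyc12g006730.1.1 had 3.36 and 0 RPKM in S. pennellii and 7.04 and 17.1 in M82, a log2 difference of −2.53 ± 0.66 (SE; limma adjusted p = 0.021). Gene Solyc02g082070.2.1 had 7.89 and 9.21 RPKM in S. pennellii root and 27.9 and 33.2 in M82, a log2 difference of −1.72 ± 0.49 (SE; adjusted p = 0.033). The first call was lost without the S. pennellii or the M82 sun root library (adjusted p up to 0.26). The second was lost without either S. pennellii root library or the M82 sun root library (up to 0.28). Solyc02g082070.2.1 was called higher in S. pennellii inflorescence, at 2.51 and 3.24 RPKM against 0.300 and 0 in M82 (log2 difference 1.76, adjusted p = 0.036). Over the mean of tissues, Solyc12g006770.1.1 was called lower at −1.32 ± 0.47 (adjusted p = 0.039), a call that 15 of 24 libraries could each end when left out (adjusted p up to 0.086). These were 9 M82 libraries (all but the sun root, shade stem and sun inflorescence) and 6 S. pennellii libraries, the shade inflorescence, leaf, stem and meristem and the sun root and seedling.

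The species difference varied between tissues for 29 of the 99 genes in limma's F test of the interaction of species with tissue (adjusted p under 0.05), against 8.46% of all genes. Gene Solyc06g068520.2.1 changed direction between tissues. In seedling it had 62.7 RPKM in shade and 29.7 in sun in S. pennellii and 3.19 and 2.13 in M82, a log2 difference of 3.61 ± 0.40 (SE; limma adjusted p = 5.5e-05). In root it had 35.3 and 18.2 RPKM against 3.79 and 1.15 (log2 difference 3.04, adjusted p = 0.00015). In leaf it had 12.6 and 10.2 RPKM in S. pennellii and 47.9 and 66.1 in M82, a log2 difference of −2.21 ± 0.40 (SE; adjusted p = 0.0025). The species did not overlap in these 3 tissues, with S. pennellii above in seedling and root and below in leaf. The lower call in leaf was lost without the M82 sun leaf library (adjusted p = 0.056). The test of the interaction gave an adjusted p of 0.00022.

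Within S. pennellii, 75 of the 99 genes varied between the 6 tissues (limma F test over the tissue means), against 60.5% of all genes. Of the 13 genes called higher in all tissues, 7 varied, and 68 of the other 86 did. A level of 5 RPKM in some S. pennellii tissue was reached by 92 of the 100 genes. Root was the highest tissue for 34 of them (37.0%, against 36.8% of all genes at that level). Seedling was highest for 22 (23.9%, against 4.94%), leaf for 17 (18.5%, against 10.7%), vegetative meristem for 10 (10.9%, against 13.5%), stem for 6 (6.52%, against 13.8%) and inflorescence for 3 (3.26%, against 20.3%). Both libraries of the highest tissue lay above the 10 others in 20 genes for root (20.9% of all genes), 11 for seedling (1.26%), 6 for leaf (4.26%), 4 for stem (5.50%), 4 for vegetative meristem (5.72%) and 1 for inflorescence (8.92%). Root had a share near that of all genes, seedling a share above it and inflorescence a share below it; the genes were chosen on seedlings of this species.

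Root-high members were led by Solyc11g011330.1.1 and Solyc10g086100.1.1. Gene Solyc11g011330.1.1 in shade and sun had 2297 and 2471 RPKM in S. pennellii root, 116.4 and 66.4 in seedling, and at most 4.06 in the other 8 libraries. M82 had 1555 and 1641 RPKM in root and 50.4 and 30.8 in seedling. Both species thus had the same order of tissues, root above seedling above the rest, and no tissue passed the test between them (seedling log2 difference 1.14 ± 0.50 SE, limma adjusted p = 0.16). In the seedling experiment its lowest, median and highest values were 7.01, 35.2 and 64.0 RPKM in S. pennellii, and no other library passed 6.44. Gene Solyc10g086100.1.1, whose seedling level rested on library 27, had 313.2 and 319.1 RPKM in S. pennellii root, 54.7 and 183.4 in M82 root, and at most 16.1 in the other tissues of S. pennellii in the factorial.

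The other tissues had fewer leading genes, again within the factorial. In leaf, Solyc10g080670.1.1 had 125.8 (shade) and 72.7 RPKM (sun), against at most 7.46 in the other factorial libraries of S. pennellii. Gene Solyc08g079430.2.1 had 718.4 and 206.3 RPKM in leaf against at most 49.8 in the factorial (tissue F test, adjusted p = 0.0016), and its call was lost without the S. pennellii shade leaf library (adjusted p = 0.10). In seedling, Solyc12g006740.1.1 had 51.0 (shade) and 3.92 RPKM (sun) and was listed at 0 in the other 10 S. pennellii libraries of the factorial. Gene Solyc07g008210.2.1 had 37.7 and 8.17 RPKM in seedling and at most 0.519 in the other factorial libraries of the species. Besides Solyc07g007750.2.1, stem had Solyc04g081900.2.1, at 27.8 and 31.7 RPKM against 8.21 to 25 in the other factorial libraries of S. pennellii. M82 stem had 46.2 and 30.9 RPKM of this gene, and S. pennellii in the seedling experiment had 47.7 to 112.8. The tissue F test of Solyc04g081900.2.1 gave an adjusted p of 0.046, and leaving out 18 of the 24 libraries, each alone, ended the call. Those libraries were the inflorescence, root, seedling and stem libraries of either species and light and the S. pennellii meristems.

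Inflorescence had 1 such gene, Solyc02g049080.1.1, with 31.7 RPKM in shade and 22.7 in sun against at most 20.8 in the other factorial libraries of S. pennellii. In vegetative meristem, Solyc02g089660.1.1 had 12.9 and 9.97 RPKM against at most 5.90 elsewhere in the factorial for S. pennellii. Both genes reached higher levels in the seedling experiment, up to 30.8 RPKM for Solyc02g049080.1.1 and 72.1 for Solyc02g089660.1.1, so the latter was higher there than in meristem. These margins over the next library were small beside those of the root and leaf genes.

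In M82, root was the most frequent highest tissue of the genes. A level of 5 RPKM in some tissue was reached by 59 of the 100 genes, and root was highest for 30 of them (50.85%, against 23.6% of all genes). Both M82 root libraries lay above the 10 others for 27 of the genes (11.9% of all genes), and both seedling libraries for 8 (3.11%). The same held for 7 genes in inflorescence (15.3%), 2 in leaf (2.44%), 1 in stem (6.40%) and 0 in vegetative meristem (2.39%). A mean of 5 RPKM was reached by 42 of the genes in M82 root and by 22 in M82 seedling. The share of all genes at that level in these tissues was not counted. In M82 the genes had a median of 3.10 RPKM in root and 1.497 in seedling, against 11.1 and 9.46 in S. pennellii.

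The summed level of root genes also differed between seedlings of the species. A list of root genes was taken from M82 alone, with at least 5 RPKM in root, 4-fold over the next tissue and no overlap of libraries; it held 770 gene models (2.72% of the table) and 20 of the 100 genes. Over the 750 that are not among the 100, the summed RPKM was 2176 to 3478 in the 7 S. pennellii seedling libraries. It was 1279 to 1585 in S. lycopersicum, 1509 to 2109 in S. pimpinellifolium and 1166 to 2025 in S. habrochaites, so every S. pennellii library lay above every other. The sum was not spread evenly over the list. The median log2 difference between S. pennellii and S. lycopersicum seedling means was 0.10 for the 750 genes and 0.11 for all 19536 expressed genes, and 428 of the 750 were higher in S. pennellii. The means differed by 1358 RPKM in sum, of which the 10 largest differences made up 746. Within block 1 the S. pennellii sum was 2176 to 2529, against at most 1644 in the other species. Within block 2 it was 2753 to 3478, against at most 2109. In factorial seedlings the species overlapped, at 2928 and 3050 in S. pennellii and 2509 and 3611 in M82. In roots the sum was 46227 and 49795 in S. pennellii and 54593 and 56094 in M82. The part of root material in the seedling levels of the 100 genes was not tested.

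Simulated shade was compared with simulated sun over the 6 tissue pairs of each species. Of the 99 genes, 0 were called in S. pennellii, 0 in M82 and 0 for the difference between the species. Among all genes, 0.00888% were called higher in S. pennellii shade, and 0.00% lower there, in either direction in M82, or for the difference. Before adjustment, limma gave a p under 0.05 for 6, 6 and 10 of the 99 genes, where all genes had 6.21%, 5.50% and 7.07%. The test on recovered reads (limma voom) also called 0 of the 99 in each. The median shade minus sun log2 difference was 0.00 in S. pennellii and 0.17 in M82, where all genes had −0.05 and 0.07. In S. pennellii 1 gene was above sun in all 6 pairs (1.53% of all genes) and 4 were below (2.83%); in M82 there were 0 and 0 (1.06% and 0.573%).

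The smallest p for a rise in S. pennellii shade belonged to Solyc06g068520.2.1. It had 62.7 RPKM in shade and 29.7 in sun in seedling, 12.6 and 10.2 in leaf, 35.3 and 18.2 in root, 290.4 and 70.7 in stem, 81.2 and 56.6 in inflorescence, and 40.0 and 23.3 in vegetative meristem. Shade was above sun in each of the 6 pairs, by the widest margin in stem. The log2 difference was 0.92 ± 0.23 (SE), with a limma p of 0.0012 and an adjusted p of 0.36, so it did not pass. Gene Solyc12g006750.1.1 followed, at 1.94 ± 0.61 (SE; adjusted p = 0.58). It had 108.1 RPKM in shade seedling and 1.404 in sun seedling and at most 15.8 in the other S. pennellii libraries of the factorial. The same pair of libraries differed for its neighbours, at 29.1 against 4.48 RPKM for Solyc12g006730.1.1, 51.0 against 3.92 for Solyc12g006740.1.1 and 216.2 against 23.9 for Solyc12g006770.1.1. This is 1 library against 1, with no replicate, and the 4 genes lie side by side.

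In the other direction, Solyc02g062460.2.1 (log2 difference −0.95 ± 0.33 SE, limma adjusted p = 0.68) and Solyc08g016600.1.1 (−0.84 ± 0.32 SE, adjusted p = 0.74) had the smallest p-values for lower levels in S. pennellii shade. Solyc08g016600.1.1 in shade and sun had 6.75 and 9.96 RPKM in seedling and 4.35 and 21.4 in leaf. Shade lay below sun in 5 of the 6 pairs, and in inflorescence it was slightly above, at 6.25 against 5.76 RPKM. In M82, Solyc01g108960.1.1 (1.62 ± 0.42 SE, limma adjusted p = 0.86) and Solyc10g080670.1.1 (1.72 ± 0.50 SE) were nearest to a rise. Solyc07g056200.2.1 (−1.17 ± 0.42 SE) and Solyc01g108880.2.1 (−0.59 ± 0.28 SE) were nearest to a fall. For the difference between the species, Solyc07g056200.2.1 had 1.97 ± 0.59 and Solyc01g108960.1.1 −1.86 ± 0.59 (SE, limma adjusted p = 0.67 each). None of these passed.

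**Figure D5:**
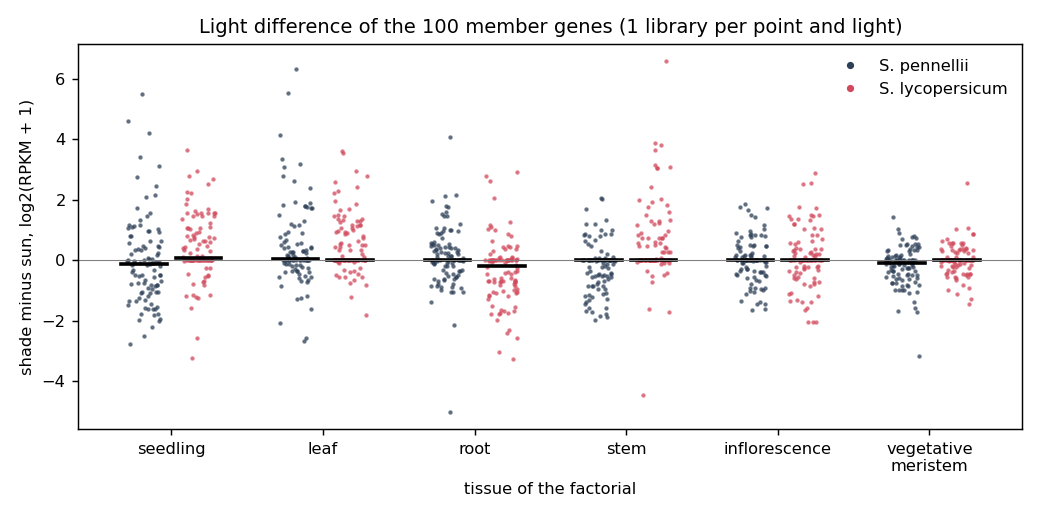
Shade minus sun difference, as log2(RPKM + 1), of the 100 genes in each tissue of the factorial for S. pennellii and M82, with 1 library per light. Points lie on both sides of 0 in each tissue and species, and none of the 99 tested genes was called over the 6 pairs.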

How the data were processed

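Expression was analysed in 52 RNA-seq libraries. The authors deposited a table of RPKM values per gene model; CASAVA 1.4 and BWA 0.5.7 are named per the submitters' processing notes, and the sources used here do not give the reference, the counting rule or the treatment of multiply matching reads. Unused value columns numbered 0. Reads recovered from the RPKM steps were whole for 100% of values (tolerance 0.02 reads), which gave library totals and implied gene lengths.

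The members and lists were chosen with earlier results of these data known. Factorial tests used limma 3.58.1 in R 4.3.3 on log2(RPKM + 1), trended and robust, over 22512 genes with at least 1 RPKM in 2 of 24 libraries, with Benjamini-Hochberg adjustment. The model had a mean per species and tissue and a light term per species (10 residual degrees of freedom). Calls needed an adjusted p under 0.05 and, outside F tests, a log2 difference of at least 1. The procedure was tested on simulated data in which the changed genes were not low and changed alike in every tissue. Those data did not cover genes at 0 in M82 or genes that differ in some tissues only. The seedling libraries entered no test, since they chose the genes. Named genes were the 2 highest scores, those next to the limit, and per comparison the 2 largest called differences in each direction with at least 5 RPKM in the higher species; for light the 2 smallest p-values, and for tissue patterns the 2 largest margins. Alternatives were the pseudocount, the low-value filter, the scaling, voom on recovered reads, and leaving out each library.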

Additional observations from a re-analysis of the deposited data

Results flagged for a closer look

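Over 117 sets of 7 seedling libraries of a species for the genes named above, 10 had a library far from the other 6. Chance flags about 1 set in 20 where values are spread continuously. In 7 of the 10 the other 6 libraries were listed at 0 and 1 library held 1 to 3 reads, so the gap is set by the zeros and that rate does not apply to them. Of the 10, 2 were low S. pennellii libraries: replicate 22 for Solyc09g007010.1.1, at 9.82 RPKM, and replicate 28 for Solyc11g011330.1.1, at 7.005 RPKM. Both are libraries of run block 1. In S. habrochaites, replicate 20 was low for Solyc04g081900.2.1, at 2.05 RPKM, and replicate 17 was the only library with a read of Solyc09g007010.1.1, at 0.966 RPKM, and of Solyc08g016600.1.1, at 0.5435 RPKM. In S. lycopersicum, replicate 7 alone had reads of Solyc12g010210.1.1, at 1.69 RPKM, and of Solyc12g006740.1.1, at 1.48 RPKM, and replicate 4 alone had reads of Solyc08g014230.2.1, at 0.489 RPKM. In S. pimpinellifolium, replicate 13 alone had reads of Solyc08g016600.1.1, at 0.609 RPKM, and replicate 12 alone of Solyc10g086100.1.1, at 3.05 RPKM.

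The difference between S. pennellii and M82 varied between tissues for 8 of the 13 genes named for a species difference, by the species by tissue F test of limma. The adjusted p was 0.00022 for Solyc06g068520.2.1, 0.0011 for Solyc01g006580.2.1, 0.0013 for Solyc07g007750.2.1, 0.0016 for Solyc08g014230.2.1, 0.0026 for Solyc12g010210.1.1, 0.0076 for Solyc02g062460.2.1, 0.020 for Solyc02g082070.2.1 and 0.031 for Solyc02g089660.1.1.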

How the results depend on the processing

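Recomputed counts of the 100 genes were within 1.5 times the reported count in 407 cases and outside in 9. The 407 include the light counts, which were 0 in every setting. With a library left out in turn, the higher calls ran from 34 to 49 in seedling, 21 to 35 in leaf, 22 to 34 in root, 17 to 24 in stem, 12 to 23 in inflorescence and 13 to 29 in vegetative meristem. They ran from 41 to 44 for the mean of tissues, the interaction from 20 to 34, the variation between tissues from 69 to 77, and the light calls stayed at 0. On recovered reads, limma voom called 47 higher in seedling, 34 in leaf, 32 in root, 22 in stem, 34 in vegetative meristem and 20 in inflorescence. With a pseudocount of 0.1, 17 genes had a species difference that varied between tissues, and 57 of the 100 genes stayed among the 100 highest scores with that pseudocount in the score. Between 93 and 99 stayed when a seedling library was left out, and 97 after median-ratio scaling. Of 48 results on named genes, 13 lost their call under some alternative and 0 reversed. Of these 13, 10 are lower calls in S. pennellii and 3 are tissue patterns. The light results among the 48 were not called, so they had no call to lose. The tissue pattern of Solyc02g049080.1.1 was lost only with a pseudocount of 0.1 (adjusted p = 0.21). No paired analysis was possible because the seedling libraries carry different numbers in each species and the factorial has 1 library per combination; tissue is already a block in the light comparison. Depth limits low genes, where an RPKM of 1 is about 2.12 reads at the median length of all gene models, 918 bases. The 100 genes had a median length of 509.5 bases, so an RPKM of 1 is fewer reads for most of them.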

Other observations

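Lists of tissue genes taken from M82 by the same rule as the root list also had summed levels in the seedling experiment, over genes that are not among the 100. The 20 seedling genes summed to 1931 to 3012 RPKM in S. pennellii and 1518 to 1991 in S. lycopersicum, which overlap; S. pimpinellifolium had 1088 to 1908 and S. habrochaites 1084 to 1789. The 36 leaf genes summed to 657 to 1106 RPKM in S. pennellii, 537 to 618 in S. lycopersicum, 411 to 638 in S. pimpinellifolium and 554 to 877 in S. habrochaites, which overlaps S. pennellii. The 154 stem genes summed to 1834 to 2361 RPKM in S. pennellii, below S. lycopersicum at 2399 to 2969 and overlapping S. pimpinellifolium at 2094 to 2578 and S. habrochaites at 1606 to 2263. The 148 inflorescence genes summed to 1322 to 1822 RPKM in S. pennellii, 1077 to 1651 in S. lycopersicum, 851 to 1035 in S. pimpinellifolium and 1214 to 1658 in S. habrochaites. Of the 100 genes, 2 were on the seedling list (0.078% of all gene models) and 1 on the inflorescence list (0.527%). On the leaf (0.127%), stem (0.544%) and vegetative meristem (0.014%) lists there were 0. Lists this small would hold few or none of any 100 genes, so the counts of 0 say nothing particular about these genes.

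Gene Solyc09g007010.1.1, first by score, had 251.1 RPKM in shade and 2.14 in sun in S. pennellii leaf. It had 17.6 RPKM in shade seedling and was listed at 0 in sun seedling. M82 had 93.8 RPKM in shade stem and was listed at 0 in sun stem. Over the 6 pairs the gene did not pass for light (limma log2 difference 1.88 ± 0.93 SE, adjusted p = 0.80 in S. pennellii; 1.63 ± 0.93, adjusted p = 0.90 in M82), nor for species in leaf (0.91 ± 1.61, adjusted p = 0.83) or stem (−2.85 ± 1.61, adjusted p = 0.28).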
